A study of Mus musculus with 47 samples.

Results

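The corpus callosum of mice fed cuprizone for 3 weeks was compared with that of a naive mouse, using 3 treated libraries and 1 naive library out of the 47 of the series. These 4 libraries belong to an acute table of 7, whose other 3 come from mice given cuprizone for 5 weeks and normal chow for 1 further week (5 + 1 weeks). All were wild type C57BL/6 mice, and RNA was taken from the microdissected corpus callosum after perfusion. By the labels the naive mouse was a female of 2 months, and the 3-week replicates 1, 2 and 3 were male, female and male. The treated mice were young adults when the diet began, so they may have been older than the naive mouse, and age and cuprizone cannot be told apart here. A later contrast of the same region, 2 libraries after 12 weeks of cuprizone against 3 naive libraries labelled 8 months, is set beside the 3-week values because it shares no library with them.

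Cuprizone is a copper chelator that, mixed into chow, makes mature oligodendrocytes sick and then lets them die, most of all in the corpus callosum, the large commissural tract of the brain. Oligodendrocytes wrap axons in myelin, a stack of lipid-rich membrane held together by a small set of abundant proteins. As they are lost, resident microglia take up the debris, astrocytes enlarge and fill with intermediate filaments, and progenitors divide to replace the lost cells. In bulk tissue fewer cells of a type and less RNA per cell cannot be told apart, so every value here is a level in the whole tissue piece.

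The values are the deposited log2 normalized expression values, on which a difference of 1 is a 2-fold difference. The sample labels and the column headers of the study's supplementary table name the acute libraries in different orders, and the deposited values equal that table in all 7 columns for 1999 of 1999 genes compared, to within 0.0001 of the value (0.0001 log2 units for values under 1). The header order was used. The sex read from 4 Y-linked genes matched it in 6 of 7 libraries and matched the label order in 2 of 7. The exception is 3-week replicate 3, labelled male, in which *Xist* stood at 11.64, near the 11.68 of replicate 2 and the 11.79 of the naive library, against 6.10 in replicate 1. Among the 5 + 1 weeks libraries replicate 1 stood apart: it differed by 1 log2 unit or more from each other acute library in 2784 to 4651 genes, while the 3-week libraries differed from each other in 49 to 219. That replicate enters the fits over all 7 libraries, which are given with and without it, the 5 + 1 weeks values, and the mean over 7 libraries that sets the level limit below.

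The acute table holds 23420 genes, and 14463 of them averaged log2 of 10 or more over the 7 libraries and were tested. With 1 naive library no spread between naive mice could be measured, so a gene was counted as higher or lower when each of the 3 treated libraries lay at least 1 log2 unit from the naive one on the same side, called the fold rule below. By this rule 193 genes were higher (1.33% of those tested) and 89 were lower (0.615%). In 24 genes every library was at least 2 log2 units higher, and in 3 every library was at least that much lower. With the level limit set on the mean of the 4 libraries compared, the counts were 198 and 79. Either mean includes treated libraries, so a gene under the limit of 3.32 in naive could pass through the treated ones. Among the 12 largest increases *Timp1*, *Msr1*, *Glycam1*, *Mmp12* and *Ch25h* read 1.95 to 3.19 in naive, under that limit. With no limit the counts were 240 and 145. The median difference over all tested genes was 0.018. Of all tested genes 36.1% lay above naive in all 3 treated libraries and 30.7% below it in all 3, the share against which such counts stand for each list below. Replicate 1 lay closest to naive: 343 genes differed by 1 or more between it and the naive library, against 784 for replicate 2 and 567 for replicate 3, and it gave the smallest of the 3 differences in 202 of the 282 genes counted. Without it the rule counted 296 higher and 202 lower genes, and without replicate 3, whose sex genes go against its label, 205 and 96. With the columns read in the order of the sample labels it counted 9 and 7, so the counts rest on the header order. Just inside the level limit lay *Slc47a1* (mean 3.33) and *A230001M10Rik* (mean 3.37). Just outside lay *Cd300lb* (mean 3.32, difference 1.86) and *Cldn14* (mean 3.32, difference −2.03), which the rule would otherwise have counted.

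limma was fitted to all 7 acute libraries, with the naive library assumed to vary like the others. It called 0 genes at a Benjamini-Hochberg adjusted p below 0.05, with a smallest adjusted p of 0.0514. Of the 14463 genes tested, 663 had an unadjusted p below 0.05, fewer than that threshold would pass with no difference in any gene. Without 5 + 1 weeks replicate 1 limma called 151 higher (1.04%) and 32 lower (0.221%), of which 115 and 16 were also counted by the fold rule. Adjusted p-values below come from these fits, named as with and without that library. A difference is followed by the SD of the 3 treated libraries, which does not cover variation between naive mice.

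**Figure D1:**
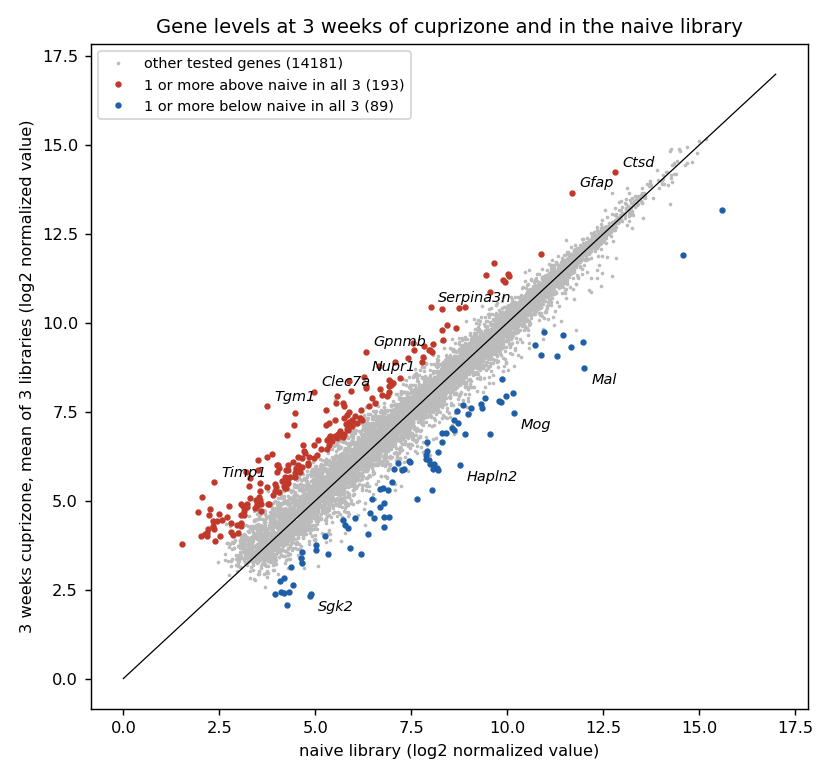
Each point is 1 of 14463 tested genes, with the log2 normalized value in the naive library on the x axis and the mean of the 3 libraries at 3 weeks on the y axis; the line marks equal values. The 193 genes higher by the fold rule (red) reach from low values such as *Timp1* to high ones such as *Ctsd*, and the 89 lower genes (blue) include *Mal* and *Mog*.

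Defining markers of white matter glia were present in all 4 libraries. The oligodendrocyte genes *Mal* and *Mog* stood at 12.01 and 10.17 in the naive library, *Gfap* of astrocytes at 11.69 and *Csf1r* of microglia at 10.64. Neuronal RNA was present as well, with *Snap25* at 14.52 in the naive library and 14.68, 15.02 and 14.83 in the treated ones. Markers of striatal neurons, which lie beneath the callosum, were below naive in all 3 treated libraries for 9 of 9 genes, with library medians of −0.31, −2.10 and −1.13 for replicates 1, 2 and 3. *Drd2*, the D2 dopamine receptor, read 9.37 in naive and 9.13, 6.81 and 8.20 at 3 weeks. Markers of upper-layer and cingulate cortex neurons lay above naive for 8 of 8, with library medians of 0.41, 0.94 and 0.64. Replicate 2 stood farthest from naive in both lists and replicate 1 closest. Most markers of leukocytes and red cells were low or absent, and 4 of the 21 listed passed the level limit. Their differences ran from −0.26 to 1.67, with none past the fold rule defined above and 1 past it without replicate 3. *Ccr2* and *Cd3e* read 2.98 and 0.45 in naive and at most 3.24 and 1.47 at 3 weeks.

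Myelin genes lay far below naive. Of 33 genes of compact myelin and the oligodendrocyte membrane, 20 were lower by the fold rule and 0 higher, 32 lay below naive in every library, and the median difference was −1.73 against 0.018 over all tested genes. *Mal*, a proteolipid of myelin rafts, read 12.01 in naive and 9.57, 7.97 and 8.65 in the 3 treated libraries, the largest decrease of the table at −3.28 ± 0.80 (SD, n = 3). *Mog*, the outermost myelin glycoprotein, read 10.17 and 8.77, 6.21 and 7.45, a difference of −2.69 ± 1.28. A gap from naive of at least 1 log2 unit was set for both by the rule that picked them. The 3 treated libraries were themselves spread over more than 1. *Mobp*, which helps compact the sheath, read 11.98 and 10.50, 8.47 and 9.46 (−2.50 ± 1.02). *Hapln2*, a link protein of the matrix at nodes of Ranvier, differed by −2.75 ± 0.97 and the protease gene *Klk6* by −2.51 ± 0.64. In each of these 5 genes replicate 2 was lowest and replicate 1 closest to naive.

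The order of the treated libraries was the same across the myelin list and the striatal one. Library medians of the myelin list were −1.11, −2.57 and −1.82 for replicates 1, 2 and 3, beside −0.31, −2.10 and −1.13 for the striatal list. The part of dissection in the spread of the myelin genes, and in their difference from the 1 naive piece, was not tested. limma gave *Mal* an adjusted p of 0.311 with the 5 + 1 weeks replicate 1 and 0.0533 without it, and *Mog* 0.695 and 0.218. The fit without that library called 2 of the 33 genes.

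Some members of the myelin list missed the fold rule, among them *Cnp*, *Myrf* and *Nkx6-2*. *Cnp*, an enzyme of uncompacted myelin, read 12.74 in naive and 11.92, 10.79 and 11.22 at 3 weeks, a difference of −1.43 ± 0.57 with 1 library short of the rule. *Myrf*, the transcription factor that switches on myelin genes, differed by −1.14 ± 0.72, and *Nkx6-2*, another such factor, by −1.60 ± 1.03. Beyond the list, *Sgk2*, a kinase gene, read 4.89 in naive and 2.70, 2.11 and 2.29 at 3 weeks, the most even decrease among the 12 largest (−2.53 ± 0.30; adjusted p = 0.168 with and 0.0259 without 5 + 1 weeks replicate 1). *Ppp1r14a*, an inhibitor of myosin phosphatase, differed by −2.61 ± 0.76. The uncharacterised transcripts *1700047M11Rik* and *A230001M10Rik* differed by −2.69 ± 0.88 and −2.56 ± 1.24. The second lay near the level limit, at 4.88 in naive and 3.74, 1.72 and 1.50 at 3 weeks.

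**Figure D2:**
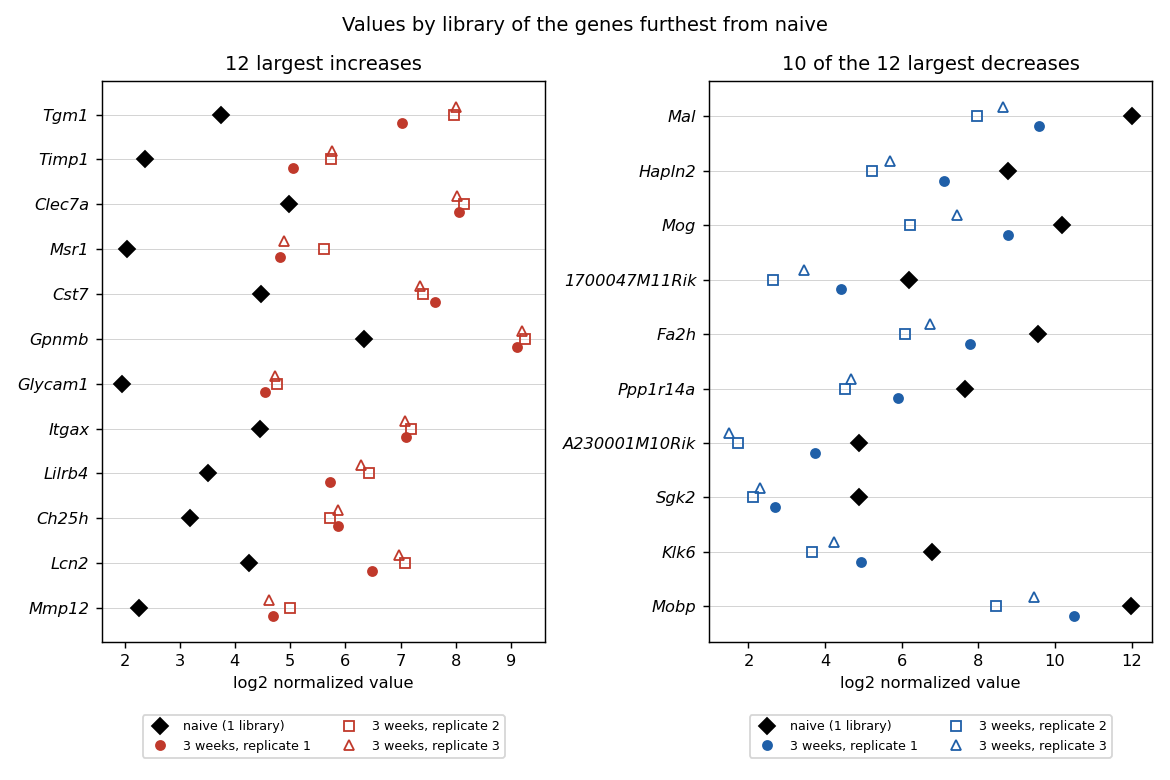
The log2 normalized values of the 12 genes with the largest increase and 10 of the 12 with the largest decrease are shown for the naive library (black diamonds) and the 3 libraries at 3 weeks (coloured marks). The 3 treated libraries lie close together in several of the increases, as in *Gpnmb* (SD 0.07), while the spread is wider in most of the decreases, as in *Mog* (SD 1.28).

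Enzymes that make myelin lipids lay below naive too. All 17 genes of the sphingolipid and fatty acid list lay below naive in every library, 3 by the fold rule, with a median of −0.56. *Fa2h*, which hydroxylates the fatty acids of myelin galactolipids, read 9.55 in naive and 7.79, 6.08 and 6.73 at 3 weeks (−2.68 ± 0.86). *Ugt8a*, which makes galactosylceramide, read 9.78 and 8.49, 7.29 and 7.63 (−1.97 ± 0.61), and *Aspa*, which supplies acetate for lipid synthesis, read 8.09 and 6.98, 5.09 and 6.01 (−2.06 ± 0.94). *Gal3st1*, the sulfotransferase that acts on galactosylceramide, differed by −0.94 ± 0.36, and the ceramide synthase *Cers2* and the elongase *Elovl1* by −0.74 ± 0.18 and −0.63 ± 0.07. Of the 23 genes of cholesterol synthesis, which myelin also needs, 19 were below naive in every library (30.7% of all tested genes were), none by the fold rule, with a median of −0.22 and a lowest difference of −0.46. *Hmgcs1* and *Mvk* of the mevalonate route differed by −0.30 ± 0.08 and −0.22 ± 0.14.

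Lists of progenitor and early oligodendrocyte genes had medians closer to naive than the myelin list. None of the 19 progenitor genes passed the fold rule in either direction (median −0.12). *Pdgfra*, the growth factor receptor that marks progenitors, read 9.06 in naive and 9.06, 9.13 and 9.19 at 3 weeks, and *Cspg4*, which encodes NG2, read 7.50 and 7.51, 7.62 and 7.56. For both, the treated libraries lay as close to naive as to each other. *C1ql1* differed by −0.12 ± 0.23. Of 13 genes of newly formed oligodendrocytes none passed either (median −0.15). Below naive in every library were 8 of them, against 30.7% of all tested genes, and 3 were above it in every library. Without replicate 1 the rule counted 2 as lower. Values were on the low side for *Enpp6* and *Bcas1*: *Enpp6*, an early myelinating marker, read 7.20 and 6.26, 5.66 and 5.83, and *Bcas1* differed by −1.05 ± 0.78. *Gpr17*, a receptor of cells about to mature, differed by −0.47 ± 0.14. The Notch and Id regulators, which hold progenitors back, had a median of 0.03, with *Hes1* at 0.35, *Hes5* at −0.53 and *Hes6* at −0.03.

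A set of integrated stress response genes lay well above naive with little spread between the treated libraries. This response slows translation through the initiation factor eIF2 and lets ATF4 induce genes for amino acid supply and survival. Of 29 tested members 6 were higher by the fold rule, 0 lower and 22 above naive in every library, with a median of 0.33. *Nupr1*, a small stress-induced chromatin protein, read 6.28 in naive and 8.40, 8.54 and 8.54 at 3 weeks (2.21 ± 0.08; adjusted p = 0.0766 with and 0.00598 without 5 + 1 weeks replicate 1). *Atf3*, a transcription factor of stressed and injured cells, read 4.67 and 6.50, 6.51 and 6.71 (1.90 ± 0.12). *Atf5*, a factor itself controlled by this response, read 8.74 and 10.51, 10.32 and 10.48 (1.70 ± 0.10; adjusted p = 0.345 and 0.00871). The 3 treated libraries lay far closer to each other than to naive in each of them, though the fold rule sets a distance from naive of at least 1.

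The other counted members were *Trib3*, a pseudokinase that feeds back on ATF4, which read 4.05 and 6.25, 5.53 and 5.99 (1.87 ± 0.37), and *Eif4ebp1*, a repressor of cap-dependent translation, at 5.53 and 7.33, 7.18 and 7.29 (1.74 ± 0.08). *Slc7a11*, the cystine and glutamate exchanger, read 8.43 and 9.74, 10.08 and 9.99 (1.50 ± 0.18). Replicate 1 was the highest treated library in *Trib3*, *Eif4ebp1* and *Atf5* and the lowest in the other 3. The adjusted p-values of *Trib3*, *Eif4ebp1* and *Slc7a11* were 0.631, 0.293 and 0.695 with 5 + 1 weeks replicate 1 and 0.054, 0.012 and 0.0138 without it. Other members of the list stayed near naive. *Atf4* mRNA read 10.87 and 11.03, 10.87 and 10.94, *Ddit3*, which encodes CHOP, read 8.37 and 8.62, 8.45 and 8.61, and *Ddit4* differed by −0.39 ± 0.13. *Asns* and *Chac1*, textbook targets of ATF4 that lie outside the rule for named genes and were chosen after their values were seen, differed by 0.07 ± 0.08 and 0.21 ± 0.31.

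Promoters of the counted stress genes are shown because 4 of the 5 with a RefSeq window hold the letters TGATGNAAN, the C/EBP-ATF response element, on either strand (capitals). Of tested genes with a window 2.73% hold it, and of all genes higher by the fold rule 6.99% (10 of 143). The list was drawn up from general knowledge of this response, so a higher share in it is no test. Whether the element goes with the increase was not tested. Each window runs from 250 bases before to 50 after the annotated start, 5′ to 3′ on the gene's strand, in GRCm38.p6.
Nupr1, chr7:126625421-126625720, minus strand, element beginning 111 bases before the start: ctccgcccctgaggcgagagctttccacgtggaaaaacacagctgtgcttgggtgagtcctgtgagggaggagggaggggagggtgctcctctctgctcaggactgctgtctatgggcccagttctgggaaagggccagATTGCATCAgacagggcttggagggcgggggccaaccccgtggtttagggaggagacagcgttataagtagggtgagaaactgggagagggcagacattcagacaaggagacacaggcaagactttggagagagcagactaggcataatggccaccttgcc
Atf3, chr1:191183284-191183583, minus strand, element beginning 111 bases before the start: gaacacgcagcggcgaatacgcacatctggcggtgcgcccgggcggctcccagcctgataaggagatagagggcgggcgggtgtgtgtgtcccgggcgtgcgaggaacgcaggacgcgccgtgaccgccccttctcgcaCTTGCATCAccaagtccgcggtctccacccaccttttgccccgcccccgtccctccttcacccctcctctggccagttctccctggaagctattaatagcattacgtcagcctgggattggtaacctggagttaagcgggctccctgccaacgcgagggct
Slc7a11, chr3:50443564-50443863, minus strand, elements beginning 66 and 48 bases before the start: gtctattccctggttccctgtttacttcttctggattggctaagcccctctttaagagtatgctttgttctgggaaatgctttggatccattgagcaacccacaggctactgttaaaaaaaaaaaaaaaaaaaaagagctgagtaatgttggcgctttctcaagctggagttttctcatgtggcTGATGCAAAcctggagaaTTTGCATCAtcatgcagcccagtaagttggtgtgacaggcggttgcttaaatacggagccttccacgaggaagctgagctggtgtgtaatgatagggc
Trib3, chr2:152344011-152344310, minus strand, element beginning 13 bases after the start: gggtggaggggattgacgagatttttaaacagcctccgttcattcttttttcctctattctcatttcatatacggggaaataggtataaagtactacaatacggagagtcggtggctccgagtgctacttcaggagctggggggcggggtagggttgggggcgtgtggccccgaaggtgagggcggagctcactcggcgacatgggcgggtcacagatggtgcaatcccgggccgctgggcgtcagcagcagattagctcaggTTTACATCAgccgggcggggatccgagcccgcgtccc
*Atf5* had no match in its 2 windows and *Eif4ebp1* had no window. The element was also present in the windows of *Asns* and *Chac1*, which stayed near naive, and 8 of the 22 tested list members with a window held it. A match describes the letters only.

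Of 16 endoplasmic reticulum chaperones 12 were below naive in every library, against 30.7% of all tested genes, none by the fold rule and with a median of −0.24. *Hspa5*, the main chaperone of that compartment, read 12.36 in naive and 11.77, 11.92 and 11.95 at 3 weeks, and *Hsp90b1* differed by −0.23 ± 0.03. *Dnajb9* differed by 0.02 ± 0.06. Of 15 cytosolic heat shock genes 13 lay below naive in every library, and the 1 past the fold rule was *Cryab*, a small heat shock protein abundant in oligodendrocytes and also on the myelin list (10.96 and 9.89, 9.57 and 9.79). *Hspa1a* and *Hspa1b*, which are near-identical copies and may share reads, differed by −0.52 ± 0.17 and −1.01 ± 0.26. Among 13 Nrf2 targets *Hmox1*, the heme oxygenase of iron-loaded cells, read 6.34 and 7.93, 8.26 and 8.35 (1.84 ± 0.22; adjusted p = 0.173 and 0.0138 without 5 + 1 weeks replicate 1), and *Slc7a11* is on that list too. *Nqo1*, *Gclc* and *Gclm* differed by 0.20, −0.15 and 0.05. Serine and one-carbon genes had 12 of 15 above naive in every library (36.1% of all tested genes) and a median of 0.27, with *Phgdh*, *Psat1* and *Psph* at 0.19, 0.09 and 0.29. Copper and iron handling genes had a median of 0.03 and none past the rule. The copper importers *Slc31a1* and *Slc31a2* differed by 0.03 ± 0.08 and −0.19 ± 0.07 and the copper pump *Atp7a* by 0.04 ± 0.28.

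Microglial genes lay above naive, most of all those of the disease-associated state, a profile of phagocytic and lipid-handling genes that microglia take on near damaged myelin. Of 26 tested members 13 were higher by the fold rule and 25 were above naive in every library, with a median of 1.15. The fit without 5 + 1 weeks replicate 1 called 15 of them. *Clec7a*, which encodes the lectin receptor dectin-1, read 4.98 in naive and 8.05, 8.15 and 8.02 at 3 weeks (3.09 ± 0.07; adjusted p = 0.923 with and 0.00452 without that library). *Cst7*, the lysosomal protease inhibitor cystatin F, read 4.48 and 7.62, 7.40 and 7.35 (2.98 ± 0.15), and *Itgax*, the integrin chain CD11c, read 4.45 and 7.10, 7.19 and 7.09 (2.67 ± 0.06). The treated libraries lay far closer to each other than to naive in each of these, again with a distance from naive of at least 1 set by the fold rule. *Gpnmb*, a glycoprotein of lysosome-rich phagocytes, read 6.33 and 9.12, 9.26 and 9.20, with adjusted p = 0.0514 and 0.00186. *Ccl6*, a chemokine of myeloid cells, read 5.29 and 7.40, 7.72 and 7.59 (2.28 ± 0.16), and *Ch25h*, which makes the signalling oxysterol 25-hydroxycholesterol, read 3.19 and 5.87, 5.72 and 5.87 (2.62 ± 0.08).

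Other members of the list did not reach the rule. *Apoe*, the lipid carrier that astrocytes make in bulk, read 14.47 in naive and 15.07, 14.79 and 14.86 at 3 weeks, *Lpl* differed by 0.66 ± 0.08 and *Axl* by 0.60 ± 0.01, the last with an adjusted p of 0.96 with and 0.0382 without 5 + 1 weeks replicate 1. Homeostatic microglial genes split. Of 15, 5 were higher by the fold rule and 14 above naive in every library (median 0.62). *Fcrls*, a microglial Fc receptor-like gene, read 8.90 and 10.36, 10.56 and 10.43 (1.55 ± 0.10), and the signalling adaptor *Tyrobp* read 8.31 and 9.84, 9.77 and 9.77 (1.49 ± 0.04). Its partner receptor *Trem2* differed by 1.28 ± 0.02 and *Olfml3* by 1.14 ± 0.08. The purinergic receptor *P2ry12*, by contrast, read 8.83 and 9.05, 9.08 and 8.95, *P2ry13* differed by 0.59 ± 0.01 and *Tmem119*, a surface marker of resident microglia, by 0.23 ± 0.11. *Csf1r*, chosen after its value was seen, differed by 0.62 ± 0.05. Medians of the disease-associated list were 1.13, 1.20 and 1.16 in the 3 replicates, a far narrower spread than in the myelin and striatal lists.

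Genes for uptake and digestion of debris lay above naive as well. Of 27 tested scavenger, lectin and engulfment receptors 11 were higher by the fold rule (median 0.84). *Msr1*, a scavenger receptor for lipoproteins and myelin, read 2.05 in naive and 4.82, 5.61 and 4.89 at 3 weeks (3.05 ± 0.44; adjusted p = 0.311 and 0.0528 without 5 + 1 weeks replicate 1). *Cd180*, a Toll-like receptor homologue, read 5.57 and 7.86, 8.08 and 7.94 (2.39 ± 0.12), and *Mpeg1*, a pore-forming protein of macrophages, read 9.46 and 11.20, 11.44 and 11.38 (1.88 ± 0.12). A gap from naive of at least 1 log2 unit in each library was set by the rule that picked these genes. *Fcer1g* and *Fcgr2b*, which encode Fc receptor chains, differed by 1.62 ± 0.01 and 1.56 ± 0.09. *Cd36* differed by 0.37 ± 0.31, *Scarb1* by −0.04 ± 0.14 and *Scarb2* by 0.13 ± 0.03, none past the rule. In the lysosomal list 6 of 28 genes were higher by the rule and 26 above naive in every library (median 0.59). *Ctsd*, the aspartic protease cathepsin D, read 12.82 and 14.24, 14.26 and 14.22, a difference of 1.42 ± 0.02 in a gene already among the most abundant. *Cd68*, a lysosomal membrane protein of macrophages, differed by 1.90 ± 0.09, *Ctsz* by 1.33 ± 0.05, *Gusb* by 1.25 ± 0.05 and *Grn*, which encodes progranulin, by 1.20 ± 0.06. *Ctsa*, *Ctsb* and *Ctsc* lay at 0.49, 0.69 and 0.97.

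Lipid export and storage genes passed the rule at 2 points. Of 17 genes 2 were higher by the fold rule, *Ch25h* as above and *Plin2*, which coats lipid droplets and read 6.70 in naive and 7.91, 8.26 and 8.26 at 3 weeks (1.44 ± 0.20; adjusted p = 0.338 and 0.0253 without 5 + 1 weeks replicate 1). *Abca1*, the cholesterol exporter, read 9.35 and 10.25, 10.56 and 10.65, and its difference of 1.14 ± 0.21 missed the rule through replicate 1. *Abcg1*, the other exporter, differed by −0.12 ± 0.01.

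In the complement list 8 of 20 genes were higher by the fold rule and 0 lower (median 0.75). The 3 chains of C1q, the recognition unit of the classical pathway, lay at like distances from naive: *C1qa* read 10.05 and 11.33, 11.35 and 11.32, *C1qb* 9.90 and 11.21, 11.25 and 11.18, and *C1qc* 10.01 and 11.39, 11.40 and 11.36. Their adjusted p-values were 0.444, 0.347 and 0.458 with 5 + 1 weeks replicate 1 and 0.014, 0.0186 and 0.00871 without it. The receptors for the split products lay higher still, *C3ar1* at 5.93 and 7.88, 8.19 and 8.17 (2.15 ± 0.18) and *C5ar1* at 4.01 and 5.93, 6.11 and 5.97 (1.99 ± 0.10). *C1ra*, *C1s* and *C2* differed by 1.15 ± 0.47, 0.03 ± 0.19 and 0.58 ± 0.20.

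Chemokines lay above naive from low starting levels. Of 23 tested chemokines and cytokines 8 were higher by the fold rule and 1 lower, with a median of 0.87. *Ccl3*, which draws myeloid cells, read 3.87 in naive and 5.91, 6.45 and 6.59 at 3 weeks (2.44 ± 0.36), its neighbour *Ccl4* 3.30 and 5.51, 5.90 and 5.48 (2.33 ± 0.24), and *Ccl2*, which draws monocytes, 2.22 and 3.61, 4.45 and 4.58 (2.00 ± 0.52). *Cxcl10*, an interferon-induced chemokine, read 4.01 and 5.48, 5.81 and 6.11 (1.79 ± 0.31) and *Ccl12* differed by 1.57 ± 0.16. Of these *Ccl4* alone passed limma without 5 + 1 weeks replicate 1 (adjusted p = 0.0301, and 0.214 with it). *Ccl4* and *Ccl2* lay under the level limit of 3.32 in naive, so they were tested only through treated libraries. The adjusted p does not allow for that. *Ccl5*, a chemokine of T cells, read 2.75 and 2.50, 2.93 and 3.30, on both sides of naive, while *Ccl9* and *Cxcl5* differed by 0.87 ± 0.12 and 0.81 ± 0.18. The lower gene was *Il33*, an alarmin that oligodendrocytes hold in their nuclei and that is on the myelin list too, at 9.42 and 8.16, 7.68 and 7.87. It is outside the rule for named genes and is named because it is the only one.

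Interferon-response genes lay above naive as a group. Of 26 members 8 were higher by the fold rule and 24 were above naive in every library, with a median of 1.01. *Ifi27l2a* read 4.29 in naive and 6.03, 5.88 and 6.12 at 3 weeks (1.72 ± 0.12). *Oas1a*, a sensor of double-stranded RNA, read 3.15 and 4.56, 4.47 and 4.77 (1.45 ± 0.15). Its naive value lay under the level limit of 3.32, so it was tested only through treated libraries. *Ifi44*, *Ifi204* and *Irf8*, a transcription factor that microglia also need in health, differed by 1.43 ± 0.23, 1.42 ± 0.36 and 1.24 ± 0.12. *Ifitm3*, which blocks viral entry, read 7.21 and 8.39, 8.44 and 8.51 (1.24 ± 0.06). The fit without 5 + 1 weeks replicate 1 called 2 of them, *Irf8* (adjusted p = 0.0185, and 0.637 with that library) and *Ifitm3* (0.0487 and 0.458). Of the members that did not reach the rule, *Ifit1*, *Ifit2* and *Irf1* lay at 0.82 ± 0.20, 0.51 ± 0.15 and 0.46 ± 0.20. The promoters of *Oas1a* and *Ifitm3* are shown because they hold the core of the interferon-stimulated response element. It is GAAA followed by any 2 bases and GAAA again (capitals). Of the 21 tested members with a window 47.6% hold it on either strand, against 3.65% of tested genes with one. The list was drawn up as interferon-response genes, so that contrast is no test.
Oas1a, chr5:120907476-120907775, minus strand, matches beginning 20 and 14 bases before the start: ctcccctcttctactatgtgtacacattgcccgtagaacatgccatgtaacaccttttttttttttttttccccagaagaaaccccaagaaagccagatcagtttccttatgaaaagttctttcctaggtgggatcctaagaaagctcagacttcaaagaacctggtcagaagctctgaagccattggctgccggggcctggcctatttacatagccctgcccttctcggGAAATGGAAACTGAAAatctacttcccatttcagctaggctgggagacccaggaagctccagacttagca
Ifitm3, chr7:141010695-141010994, minus strand, matches beginning 2 and 19 bases after the start: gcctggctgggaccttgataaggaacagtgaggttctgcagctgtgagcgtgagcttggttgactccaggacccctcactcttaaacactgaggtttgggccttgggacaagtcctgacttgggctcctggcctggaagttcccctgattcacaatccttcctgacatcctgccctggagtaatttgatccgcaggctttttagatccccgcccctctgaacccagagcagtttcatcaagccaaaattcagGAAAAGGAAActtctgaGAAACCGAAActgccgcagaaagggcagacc
Of the 6 counted members with a window 3 held a match (50%), near the share of all tested members. *Ifi44*, *Irf8* and *Psmb8*, which were counted, had no match, and *Ifit1*, which was not, had one.

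Antigen presentation genes are given by class. All 14 of 14 class I genes lay above naive in every library, 1 by the fold rule, with a median of 0.69. That gene was *Psmb8*, a subunit of the immunoproteasome, at 5.85 in naive and 6.87, 7.04 and 7.25 at 3 weeks, and the heavy chains *H2-D1*, *H2-K1* and *H2-Q4*, which are similar in sequence and may share reads, differed by 1.02 ± 0.09, 0.67 ± 0.05 and 0.41 ± 0.08. In class II the 1 of 11 genes past the rule was *Ifi30*, a lysosomal thiol reductase (5.97 and 7.24, 7.22 and 7.38). The class II chains named next lay nearer to naive in replicates 1 and 2 than in replicate 3. *Cd74*, the invariant chain, read 7.01 and 7.26, 7.42 and 7.97, *H2-Aa* 5.41 and 5.21, 5.59 and 6.13, and *H2-Ab1* 5.46 and 5.69, 5.49 and 6.12.

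Astrocyte genes of the reactive state had the highest median of the lists, 1.39, with 12 of 23 tested members higher by the fold rule. *Timp1*, an inhibitor of matrix metalloproteinases, read 2.36 in naive and 5.05, 5.74 and 5.77 at 3 weeks (3.16 ± 0.40; adjusted p = 0.168 and 0.0266 without 5 + 1 weeks replicate 1). *Serpina3n*, a secreted protease inhibitor, read 8.02 and 10.19, 10.60 and 10.56 (2.44 ± 0.23), and *Osmr*, the oncostatin M receptor, 5.89 and 7.85, 8.69 and 8.61 (2.49 ± 0.47). *Lcn2*, an iron-binding lipocalin, read 4.26 and 6.48, 7.08 and 6.98 but had an adjusted p of 0.568 with and 0.171 without that library. *S1pr3*, a sphingosine-1-phosphate receptor, differed by 2.12 ± 0.22 and the pentraxin *Ptx3* by 2.10 ± 0.44. *Gfap*, the intermediate filament that defines the state and is named after its value was seen, read 11.69 and 13.47, 13.77 and 13.76 (1.98 ± 0.17). Replicate 1 was lowest of the treated libraries in all 7, and list medians were 1.10, 1.60 and 1.68. *Emp1*, *Cp* and *Steap4* missed the rule, at 1.39 ± 0.39, 0.67 ± 0.15 and 0.05 ± 0.51. Homeostatic astrocyte genes had none past it and a median of 0.02. *Aqp4*, the water channel of the endfeet, differed by 0.20 ± 0.06, and the glutamate transporters *Slc1a2* and *Slc1a3* by 0.14 ± 0.11 and 0.64 ± 0.13.

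**Figure D3:**
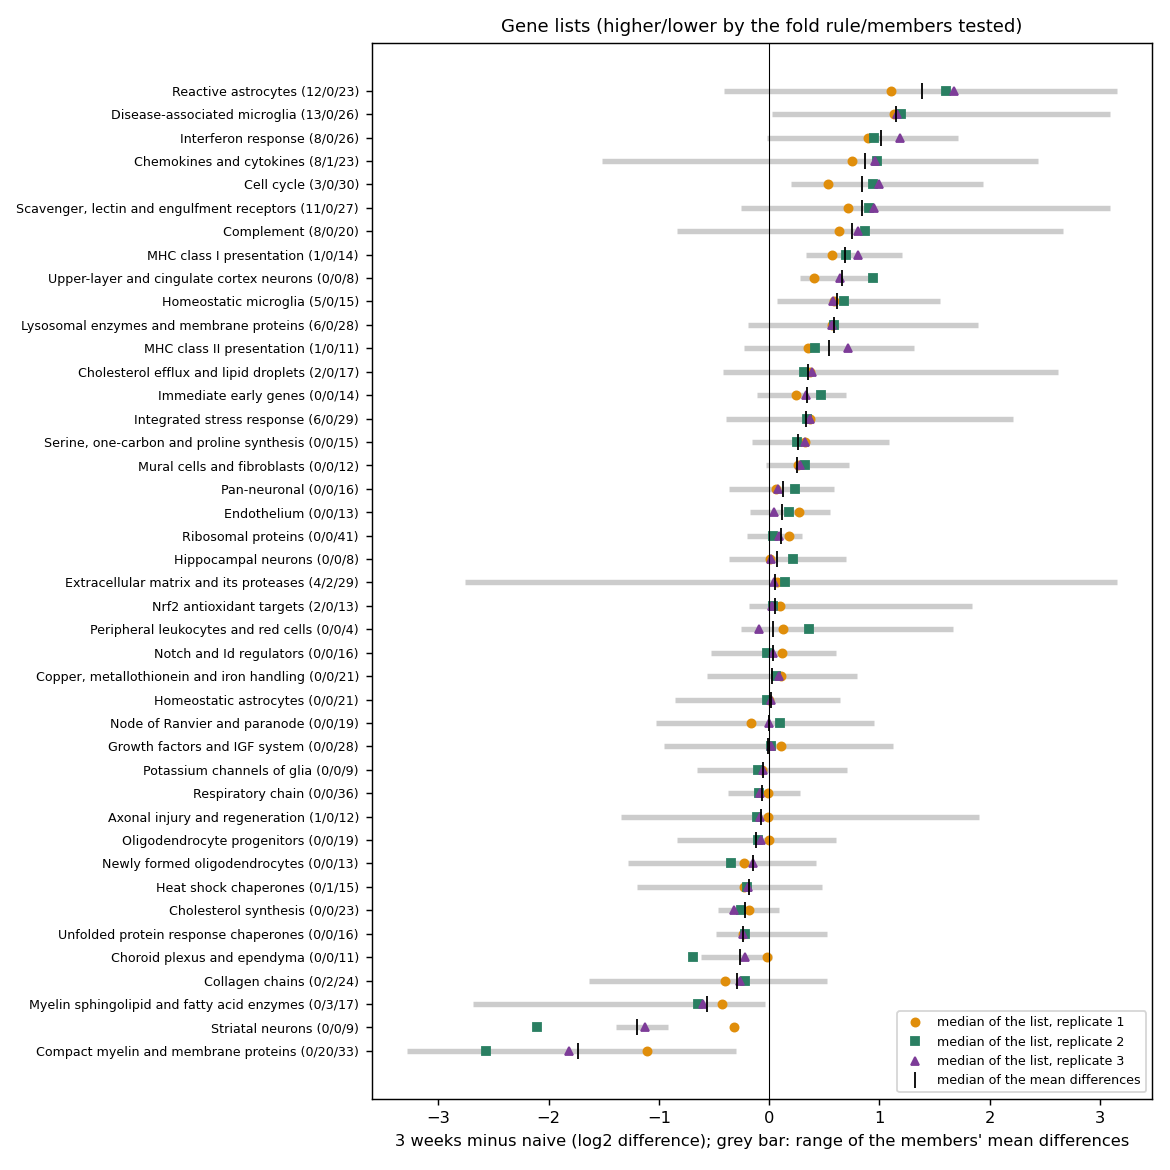
Each row is 1 gene list, with the range of its members' mean log2 difference from naive as a grey bar, its median as a black tick and its median in each 3-week library as a coloured mark; the counts give members higher and lower by the fold rule and members tested. Reactive astrocytes (12 of 23 higher) and disease-associated microglia (13 of 26) lie at the top, compact myelin (20 of 33 lower) at the bottom, and the striatal list beside it shows a wide spread between libraries.

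Cell cycle genes were above naive in every library for 30 of 30, against 36.1% of all tested genes, with a median of 0.84, although 3 passed the fold rule. *Cdk1*, the mitotic kinase, read 4.85 in naive and 5.99, 6.23 and 6.44 at 3 weeks (1.37 ± 0.22), *Ccnb2*, its cyclin partner, 3.56 and 4.94, 5.95 and 5.60 (1.94 ± 0.51), and *Aurkb* differed by 1.32 ± 0.13. *Mki67*, the usual marker of dividing cells, read 6.32 and 7.25, 7.89 and 7.80, and replicate 1 kept it short of the rule, as it did *Top2a* (1.18 ± 0.35) and *Ccnb1* (1.30 ± 0.31). Without replicate 1 the count was 12 of 30. limma without 5 + 1 weeks replicate 1 called 1 of the list, *Ccnd1*, a G1 cyclin named after its value was seen (0.82 ± 0.13), and *Cdk1* stood at adjusted p = 0.0744 (with that library 0.458). Which cells divided cannot be read from bulk tissue. Growth factors had none past the rule (median −0.01), with *Igf1*, a factor of activated microglia, at 7.25 and 7.93, 8.28 and 8.06, *Igf2* at 0.01 and *Igf1r* at −0.04.

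Matrix genes lay on both sides of naive. Of 29 extracellular matrix genes 4 were higher and 2 lower. *Mmp12*, the elastase of macrophages, read 2.27 in naive and 4.69, 4.99 and 4.62 at 3 weeks (2.50 ± 0.19), *Spp1*, which encodes osteopontin, 8.30 and 10.51, 10.40 and 10.30 (2.10 ± 0.10), and the hyaluronan receptor *Cd44* 6.32 and 7.99, 8.37 and 8.31 (1.91 ± 0.20). The lower genes were *Hapln2*, given above, and *Adamts4*, a proteoglycan-cleaving enzyme that oligodendrocytes express (8.31 and 7.17, 6.18 and 6.64). The large proteoglycans *Vcan*, *Bcan* and *Ncan* differed by −0.17 ± 0.14, −0.31 ± 0.11 and 0.10 ± 0.07. Of 24 collagen chains 15 were below naive in every library, against 30.7% of all tested genes, and 2 by the rule. *Col11a2* read 8.57 and 7.18, 7.04 and 6.95 (−1.51 ± 0.11; adjusted p = 0.654 and 0.0122 without 5 + 1 weeks replicate 1) and *Col24a1* 5.86 and 3.98, 4.33 and 4.40 (−1.63 ± 0.22), whereas the fibrillar *Col1a1*, *Col1a2* and *Col3a1* lay at 0.04, 0.20 and 0.44.

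Among the 12 largest increases 3 genes belong to none of the lists. *Tgm1*, a transglutaminase that cross-links proteins, had the largest increase of the table: it read 3.74 in naive and 7.03, 7.97 and 8.00 at 3 weeks (3.92 ± 0.55; adjusted p = 0.168 and 0.0256 without 5 + 1 weeks replicate 1). *Glycam1*, a mucin-like glycoprotein, read 1.95 and 4.54, 4.76 and 4.72 (2.72 ± 0.12), and *Lilrb4*, an inhibitory receptor of myeloid cells, 3.51 and 5.72, 6.42 and 6.29 (2.64 ± 0.37). Naive and treated values lay more than 2 log2 units apart in all 3, which were picked for the size of that difference. Of the 193 higher genes 74 were on a list, and of the 89 lower genes 25.

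Genes of axons, vessels and general cell functions mostly stood near naive. Pan-neuronal genes had a median of 0.13 and none of 16 past the fold rule, with *Syt1* and *Rbfox3* at 0.26 ± 0.16 and 0.15 ± 0.11. Genes of the node of Ranvier had a median near 0. Its members *Cntn1* and *Cntnap1*, both on axons, differed by 0.04 ± 0.08 and −0.17 ± 0.03, and *Cntn2*, of the stretch beside the node, by −1.03 ± 0.14. In the axonal injury list *Atf3* was the 1 of 12 past the rule, while *Gap43*, *Stmn2* and *Jun* differed by −0.24 ± 0.22, 0.11 ± 0.07 and 0.04 ± 0.07. Glial potassium channels had a median of −0.06, with *Kcnj10* at −0.05. The endothelial list had a median of 0.11, the mural and fibroblast list 0.25, the choroid plexus list −0.26 and the hippocampal list 0.07, none with a gene past the rule. Immediate early genes, which respond to handling within minutes, had a median of 0.34, with *Fos* at 0.70 ± 0.06. Ribosomal protein genes had a median of 0.11 and respiratory chain genes −0.06, with ranges from −0.20 to 0.30 and from −0.38 to 0.28. Across genes the difference of replicate 1 followed transcript length (Spearman correlation −0.211, genes not being independent), against 0.0963 and 0.0507 in replicates 2 and 3.

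The 5 + 1 weeks libraries of the same table give the levels after withdrawal. They share the naive library with the 3-week contrast, so their levels are set beside it without a test against naive. The direct comparison of 5 + 1 with 3 weeks does not use that library. It does reuse the 3-week libraries by whose distance from naive *Nupr1*, *Atf5* and *Trib3* were chosen. That choice favours a return toward naive in these genes, and their adjusted p-values do not allow for it. *Nupr1* read 8.40, 8.54 and 8.54 at 3 weeks and 6.91, 6.70 and 6.92 at 5 + 1 weeks against 6.28 in naive, *Atf5* 10.51, 10.32 and 10.48 and 9.76, 8.78 and 8.97 against 8.74, and *Trib3* 6.25, 5.53 and 5.99 and 5.12, 3.79 and 4.06 against 4.05. The 5 + 1 weeks values of these stress genes lay below every 3-week value. *Itgax* read 7.52, 7.45 and 7.34 and *Gfap* 14.17, 13.40 and 13.67 at 5 + 1 weeks, all far above their naive levels. *Cd74* went further from naive, from 7.26, 7.42 and 7.97 to 10.30, 9.34 and 9.37, and so did *C4b*, the complement component chosen after its values were seen, from 9.37, 9.56 and 9.65 to 11.01, 9.92 and 10.11. *Mki67* read 5.24, 6.06 and 6.21, below its naive level of 6.32. Between 5 + 1 and 3 weeks limma called 0 genes with 5 + 1 weeks replicate 1, with 3496 at an unadjusted p below 0.05, and 658 higher (4.55%) and 1034 lower (7.15%) without it. In the latter fit *Nupr1* differed by −1.69 (adjusted p = 0.0125), *Atf5* by −1.56 (0.0125) and *Cd74* by 1.80 (0.0215).

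**Figure D4:**
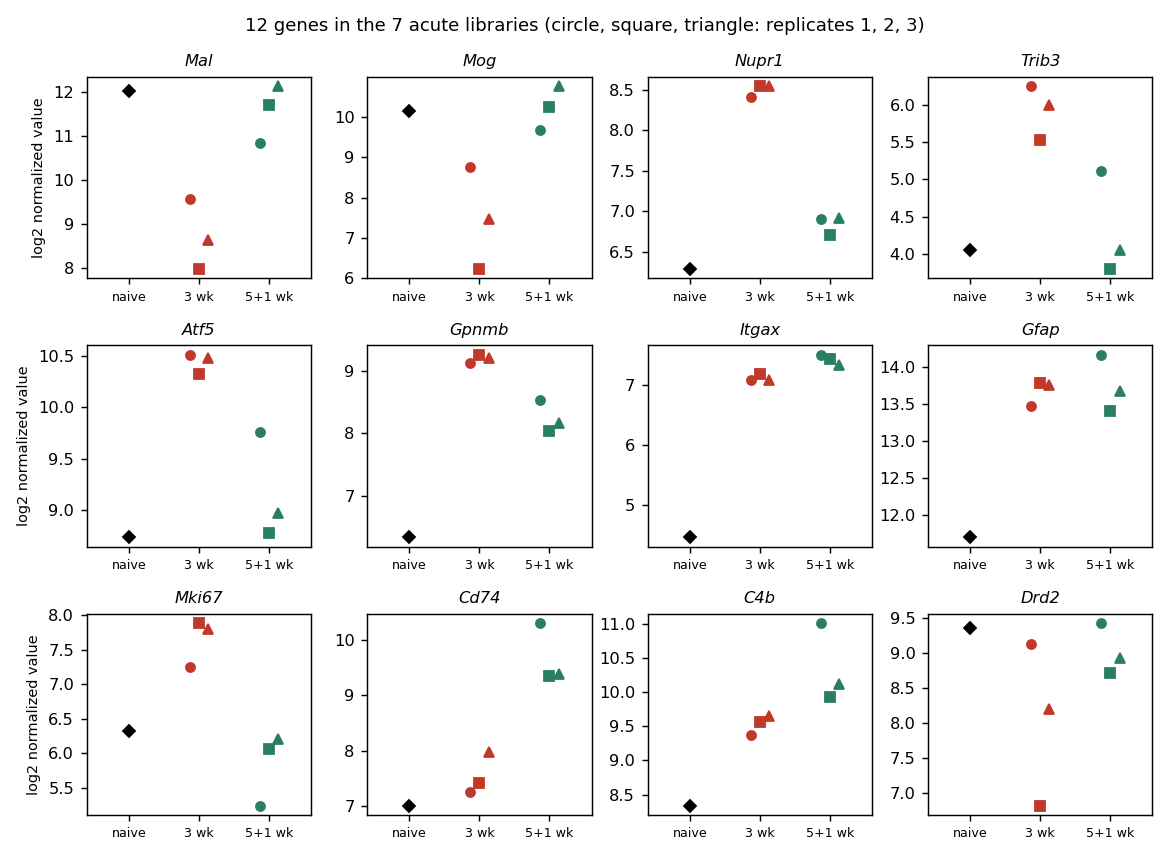
The log2 normalized value of 12 genes is shown in the naive library, the 3 libraries at 3 weeks and the 3 at 5 + 1 weeks, each panel with its own axis that does not start at 0. *Mal* and *Mog* are lowest at 3 weeks, *Nupr1*, *Trib3*, *Atf5* and *Mki67* are highest there, *Itgax* and *Gfap* are high in both treated groups, *Cd74* and *C4b* are highest at 5 + 1 weeks, and *Drd2*, the striatal marker, is spread from 6.81 to 9.13 at 3 weeks.

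The 12-week contrast of the chronic tissue, with its own 3 naive libraries, was read for the same genes. Its naive mice were labelled 8 months, so age and cuprizone cannot be told apart there either. Its values were centred and normalized apart from the acute ones, and no difference between the contrasts was tested. The methods, unlike the labels, also give another sequencer and read length for it. limma called 1663 of 13935 shared genes higher (11.9%) and 1699 lower (12.2%) at 12 weeks. Of the 88 genes lower at 3 weeks that were in that table, 44 were called lower at 12 weeks (50%, and 2.59% of all genes called lower), 1 was called higher, and 83.0% lay below 0 against 50.4% of all shared genes. Of the 187 genes higher at 3 weeks, 9 were called higher (4.81%) and 7 lower (3.74%), both under the share over all genes, and 50.3% lay above 0. The median 12-week difference was −0.81 for the lower genes and 0.0020 for the higher ones. The striatal list, below naive at 3 weeks, had a median of −0.89 there too.

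By gene, *Mal* differed by −1.61 ± 0.30 at 12 weeks (SE, 2 against 3 libraries; limma adjusted p = 0.00553) and *Mog* by −1.03 ± 0.32 (0.0441). In the myelin list 24 of 33 genes were called lower and 0 higher. *Itgax* differed by 1.13 ± 0.33 (0.0355), *Serpina3n* by 1.00 ± 0.27 (0.0249), *Cst7* by 0.72 ± 0.20 (0.0284), *Tgm1* by 0.56 ± 0.16 (0.0302) and *Atf5* by 0.72 ± 0.21 (0.0331), each past the threshold and in the 3-week direction. Other genes that stood far from naive at 3 weeks were near it at 12: *Timp1* differed by 0.23 ± 0.13 (0.241), *Lcn2* by −0.07 ± 0.29 (0.887), *Ccl3* by 0.29 ± 0.14 (0.157) and *Atf3* by −0.20 ± 0.50 (0.805). List medians at 12 weeks were −0.14 for disease-associated microglia, 0.00 for reactive astrocytes, 0.20 for the interferon response and −0.06 for the cell cycle.

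**Figure D5:**
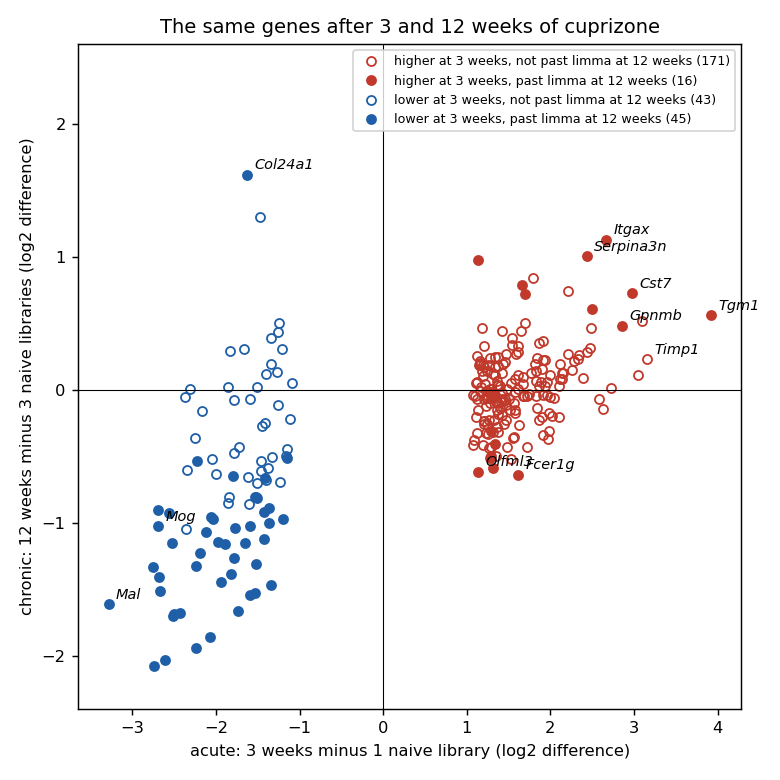
Each point is a gene past the fold rule at 3 weeks that is also in the chronic table, with its acute log2 difference on the x axis and its difference at 12 weeks of cuprizone from 3 other naive libraries on the y axis; filled marks passed limma at 12 weeks. Of 88 genes lower at 3 weeks 44 were also called lower at 12 weeks, whereas the 187 higher genes scatter around 0, with *Itgax* and *Serpina3n* at the top.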

How the data were processed

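RNA-seq libraries of corpus callosum were analysed from the log2 values that the authors deposited. Per the study's methods and processing notes, reads were aligned with TopHat2 2.0.13 to GRCm38/mm10 and counts were normalized with DESeq2 (version not given in the sources used here) before the log transform, whose kind is not given. The chronic log2 values are also centred. The labels and the methods give different sequencers and library kits for the acute samples. Raw counts were not used here, so depth is unknown, no count test was run, and precision rests on the replicates alone. The labels name separate mice as replicates.

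Acute columns were named by the headers of the study's supplementary table. Genes averaging log2 of 10 or more over 7 libraries were kept, and 27 names turned into dates were left out. Differences were tested with limma 3.58.1 in R 4.3.3, with an intensity trend over the 7 acute libraries and without one in the chronic table, after tests on simulated data, and figures were drawn with Python 3.11.15 and matplotlib 3.10.9. Adjusted p-values are Benjamini-Hochberg over all genes fitted. The 43 gene lists and the members were chosen with earlier results of these data known, and lists are described by counts and medians. Named genes are up to 12 with the largest mean difference in each direction, and per list up to 6 past the fold rule by size and the first 3 as written that were not; others are said to be chosen after their values were seen. Some genes that meet this rule are not reported here. Marker genes of the tissue check and the genes at the level limit follow rules of their own. Promoters came from RefSeq, GRCm38.p6. Column order, filters, fold, scaling, library weights, sex, transcript length and GC content, left-out libraries and a replicate block were varied. Fold change and p-value columns made by the authors, and tables of other regions, were not used.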

Additional observations from a re-analysis of the deposited data

Results flagged for a closer look

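In 10 of the genes named above every 3-week library lay on one side of the acute naive library and every 12-week library on the other side of the chronic naive libraries. The difference between the contrasts was not tested, since the tables were normalized apart and the chronic naive mice were labelled 8 months. By the methods, though not by the labels, the acute and chronic callosum libraries also differed in sequencer and read length. These 10 are 9 of 63 named genes higher by the fold rule and 1 of 17 named genes lower by it. Over all genes higher by the rule 24 (12.8%) had every 12-week library below every chronic naive one, against 27.4% of all genes shared by the tables, and over all genes lower by it 5 (5.68%) had every 12-week library above, against 25.6%. The 9 genes above naive at 3 weeks belong to microglia, their receptors, lysosomes or complement, and their differences at 12 weeks were −0.50 for *C1qa*, −0.59 for *C1qb* and −0.32 for *C1qc*, −0.64 for *Fcer1g*, −0.35 for *Fcgr2b*, −0.43 for *Tyrobp*, −0.37 for *Fcrls*, −0.62 for *Olfml3* and −0.41 for *Ctsz*. *Col24a1*, a collagen chain below naive at 3 weeks, differed by 1.62 at 12 weeks.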

How the results depend on the processing

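The counts of 193 higher and 89 lower genes by the fold rule became 9 higher and 7 lower with the columns in label order, 401 higher and 383 lower with 3-week replicate 2 alone, 240 higher and 145 lower with no filter, 106 higher and 62 lower at a level of log2 of 50, 682 higher and 351 lower at a difference of 0.5, 24 higher and 3 lower at 2 and 306 higher and 217 lower on the mean difference. Leaving out 1 replicate of 3 weeks gave 203 to 296 higher and 91 to 202 lower, the upper ends without replicate 1. Quantile normalization, a common median, the length and GC correction and a mean over 4 libraries kept both counts within 1.5 times.

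limma called 0 genes at 3 weeks, but 1527 higher and 1221 lower with library weights, 367 higher and 151 lower with only the 3-week and naive libraries, 151 higher and 32 lower without 5 + 1 weeks replicate 1, 57 higher and 10 lower with the length and GC correction, 15 higher and 128 lower with no filter and 2 higher at log2 of 50. Leaving out 1 library gave 0 to 151 higher and 0 to 32 lower, with calls only without 5 + 1 weeks replicate 1. Between 5 + 1 and 3 weeks it called 1025 higher and 1519 lower with library weights, 83 higher and 40 lower with the correction, 1 higher with quantile normalization and 1 higher with no trend, and 0 to 658 higher and 0 to 1034 lower with 1 library left out. In the chronic table it called 780 higher and 780 lower with only the 5 libraries compared, and 559 to 1605 higher and 501 to 1563 lower with 1 library left out. The cause of these shifts was not tested. With the replicate number as a block, chosen after seeing the data, limma called 34 higher and 8 lower between 5 + 1 and 3 weeks and 1251 higher and 1321 lower in the chronic table. Deviations of same-numbered 5 + 1 and 3 weeks libraries from their group means correlated at 0.0936, 0.345 and 4.52e-05 across genes. The 3-week replicate 1 correlated best with another number (0.181), and replicate 2 with its own. Deviations within a group are tied to each other, so these values cannot show whether same-numbered libraries are pairs. For 3 weeks against naive no paired analysis was possible because the title of the naive library carries no replicate number.

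Signs turned only in label order, in 40 of the named genes past the fold rule: *Adamts4* 0.20, *Atf3* −0.0081, *Atf5* −0.32, *Aurkb* −0.22, *C3ar1* −0.30, *C5ar1* −0.16, *Ccl12* −0.67, *Ccl6* −0.083, *Cd180* −0.74, *Cd44* −0.43, *Cdk1* −0.30, *Ch25h* −0.39, *Clec7a* −1.21, *Col11a2* 0.85, *Col24a1* 0.84, *Cryab* 0.41, *Cst7* −0.79, *Ctsd* −0.066, *Eif4ebp1* −0.29, *Fcer1g* −0.25, *Fcgr2b* −0.28, *Fcrls* −0.16, *Glycam1* −0.32, *Gpnmb* −0.12, *Gusb* −0.16, *Ifi44* −0.91, *Klk6* 0.013, *Lilrb4* −0.057, *Mmp12* −0.78, *Mpeg1* −0.53, *Msr1* −0.50, *Nupr1* −0.41, *Olfml3* −0.11, *Osmr* −0.056, *Ppp1r14a* 0.17, *Sgk2* 0.64, *Slc47a1* −0.57, *Slc7a11* −0.68, *Spp1* −0.68 and *Trib3* −0.70. The list medians that turned were −0.0017 for Cholesterol efflux and lipid droplets, −0.099 for Integrated stress response, 0.031 for Heat shock chaperones, −0.13 for Nrf2 antioxidant targets, −0.064 for Homeostatic microglia, −0.02 for Disease-associated microglia, −0.014 for Scavenger, lectin and engulfment receptors, −0.027 for Lysosomal enzymes and membrane proteins, −0.072 for Cell cycle and 0.54 for Collagen chains. Under all other settings no named gene past the rule and no median of a list with one changed sign. With 1 naive library, variation between naive mice limits every value.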
